A study of Caenorhabditis elegans with 15 samples.

Results

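The RNA recovered in the first set of anti-FLAG immunoprecipitations (IPs) was set against input RNA for the transcripts that were abundant in the input. A probe set was taken when its log2 value averaged 6 or more over the 3 input arrays, which held for 6930 of the 22548 probe sets that are not array controls. These members represent 5343 genes that the platform annotation names with 1 symbol. All RNA came from whole Caenorhabditis elegans harvested as young adults. The FLAG IP, the MYC IP and the input (3 arrays each) came from 1 strain. It carries the mutant allele gld-1(q485) and the transgene ozIs2, whose product, written gld-1::gfp::flag, joins GLD-1 to GFP and to FLAG, a short peptide tag. In the MYC IP an antibody against a tag that the transgene does not encode was used on the same strain. A second set holds anti-FLAG IPs of that strain and of N2, the wild-type strain without the transgene (3 arrays each). The labels do not say to which set the inputs belong, what drives the transgene, or whether replicates are separate cultures, so p-values measure the spread between these arrays, which may be technical.

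GLD-1 is an RNA-binding protein of the STAR family that is made in the germ line. It binds the mRNAs of many genes that oocytes and embryos need and holds back their translation while germ cells pass through meiosis. The transcripts it is known for include the Notch receptor glp-1, the yolk receptor rme-2 and the maternal zinc-finger genes oma-1 and oma-2. An IP of the tagged protein samples the transcripts bound to it together with those that stick to beads and antibody. The MYC and N2 IPs serve as controls for the second kind. In RNA from whole worms, fewer cells of a type and less RNA per cell cannot be told apart.

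The arrays differed in brightness, which touches every log2 comparison here. Every IP received 10 µg of carrier RNA from mouse brain, according to the labels, and a share of each IP or 5 µg of each input was amplified and labelled. What the carrier adds to the signal of any probe set, in the control IPs as in the FLAG IP, was not tested. The members' median log2 value was 2.91, 3.45 and 4.07 on the FLAG arrays, 2.78, 2.90 and 3.31 on the MYC arrays, and 7.97, 7.52 and 8.37 on the inputs. Each array has its own lowest value, between 2.213 and 2.530 on these 9 arrays. Within 0.1 of it lay 1664, 598 and 159 members on the FLAG arrays, 2289, 1469 and 459 on the MYC arrays, and 0 on each input. FLAG replicate 1 was therefore the dimmest of the FLAG arrays. Each probe set was also given its percentile among the 22548 probe sets of its array (100 is the highest) and its position (1 is the highest). A position is read only against that of the same probe set on other arrays. Positions removed the overall scale but still moved with brightness: of the members, 70.5, 80.1 and 86.4% were among the first 6930 on the FLAG arrays, 65.0, 72.1 and 81.2% on the MYC arrays, and 95.6 to 97.4% on the inputs. Because the members were chosen for high input values, a fall is the more likely direction for them and their counts of falls are descriptive.

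Most abundant transcripts were far dimmer in the FLAG IP than in the input, but a set of them came close to their input level there, which next to none did in the MYC IP. The FLAG mean was at most 2 log2 units below the input mean for 302 members, at most 1 unit below for 87, and at or above it for 15. In the MYC IP these counts were 1, 0 and 0. The 302 became 512 when FLAG replicate 1 was left out and 215 to 389 when another FLAG or input array was. The median change of all members from input to FLAG IP was -4.29 on the log2 scale, against -0.73 over all probe sets. In limma's test no member was higher in the FLAG IP (0 also at an unadjusted p under 0.05), where 38.5% of all probe sets were called higher. Lower were 6801 members (98.1%), against 52.7% of all probe sets. The lowest value was 2.455 to 2.517 on the FLAG arrays and 2.213 to 2.279 on the inputs. Within 0.1 of it on all 3 FLAG arrays lay 11525 of all probe sets, against 145 members. How much of the 38.5% reflects these different lowest values was not tested, so it is not read as enrichment over input. The log2 counts of members called move with array brightness. Centring each array on the members' median gives 2437 higher and 1563 lower, and centring on ribosomal protein genes gives 1218 higher and 29 lower.

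**Figure D1:**
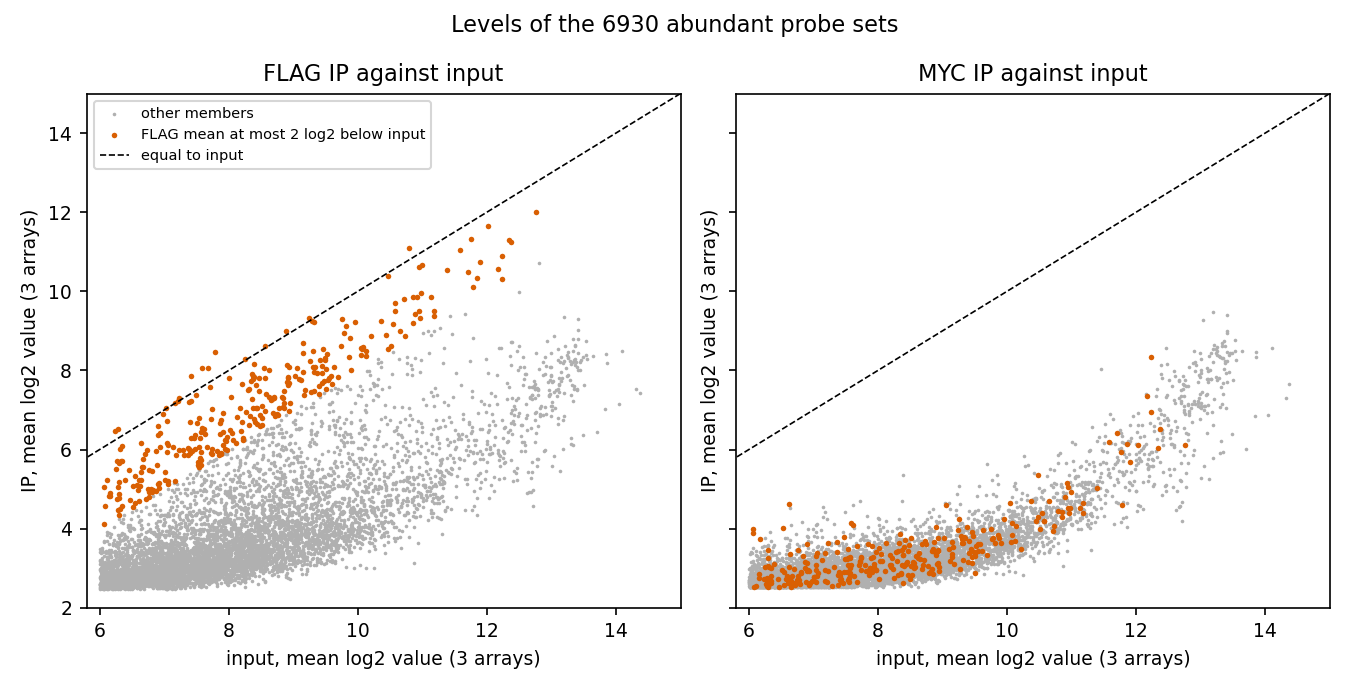
Mean log2 value of each of the 6930 members in the FLAG IP (left) and the MYC IP (right) on the vertical axis against the mean of the 3 inputs on the horizontal axis, with a dashed line where both are equal. The 302 members whose FLAG mean lies at most 2 log2 units below input are drawn in orange in both panels. They form the upper edge of the cloud on the left because they were chosen so, and lie within the cloud on the right.

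The 302 members near their input level represent 231 named genes. Their median log2 value was 7.03 in the FLAG IP, 3.23 in the MYC IP and 8.24 in the input. The other 6628 members had medians of 3.42 in the FLAG IP, 3.00 in the MYC IP and 7.93 in the input. The same FLAG and input values chose the 302, so their high FLAG level is set by that choice and nothing is read from it. In the second set, which shares no array with these values, all 3 anti-FLAG arrays of the tagged strain ranked above all 3 of N2 for 290 of the 302 (96.0%). The same held for 20.2% of the other members and for 8.89% of all probe sets. By the test of that difference 56 of the 302 (18.54%) were called higher in the tagged strain, against 1.31% of all probe sets. Over all members that test called 224 higher (1.31% of all probe sets) and 68 lower (0.395%), and all 3 tagged arrays ranked below all 3 of N2 for 1593 members (23.0%, against 33.7% of all probe sets). Of the 231 genes, 3 (1.3%) lie on the X chromosome, against 8.42% of the members' genes and 13.78% of all genes with a position. Over all members, 302 of 6930 probe sets (4.36%) and 231 of 5343 genes lay near input. Counting any probe set of a gene, the 231 included 9 of 12 earlier GLD-1 targets. They held 12 of 27 RNA regulators of oocytes and embryos and 8 of 13 genes of eggshell and yolk uptake. They also held 4 of 35 cell cycle, 2 of 19 germ granule, 2 of 27 meiotic and 2 of 45 sperm genes. Of glycolysis they held 1 of 15 genes, and of highly conserved genes 1 of 30. They included 0 of 76 genes for cytosolic ribosomal proteins, 0 of 79 cuticle collagens and 0 of 38 nuclear genes of the respiratory chain. At a share of 4.36%, 0 of 38 is near the background.

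The order at the top of the array was different in the FLAG IP. Of its 100 highest probe sets, 18 were among the 100 highest of the input, whereas 67 were for the MYC IP, 67 for the N2 IP and 0 for the second anti-FLAG IP of the tagged strain. Among the 500 highest, 246 were shared by FLAG IP and input, against 420 for the MYC IP and 397 for N2. The FLAG IP's 100 highest had a median input percentile of 98.11, so most were abundant but not the most abundant. The 18 shared probe sets include 13 genes with 1 symbol, of which 11 encode ribosomal proteins and the others are eef-1A.1 and msp-78, a major sperm protein.

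Transcripts known from the oocyte led the FLAG arrays. cpg-2, a chondroitin proteoglycan of the eggshell, had log2 values of 11.58, 12.18 and 12.25 on the FLAG arrays, 4.35, 6.72 and 7.28 on the MYC arrays, and 12.57, 12.84 and 12.88 on the inputs. It stood at position 1 on each FLAG array, at 327, 152 and 247 on the MYC arrays and at 141, 120 and 125 on the inputs. cbd-1, a chitin-binding eggshell protein, stood at positions 5, 4 and 3 on the FLAG arrays, 303, 227 and 220 on the MYC arrays, and 321, 285 and 304 on the inputs. Both genes thus ranked above all MYC and input arrays on every FLAG array, although their change in percentile (0.57 ± 1.48 and 1.33 ± 1.47 points, SE) did not pass the test. Probe sets in the top 2% of an array can gain at most 2 points, and the smallest gain called among members was 5.42 points. Percentile changes and their test therefore carry little at the top of the scale.

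oma-2, one of a pair of zinc-finger genes required for oocyte maturation, was among the few members brighter in the FLAG IP than in the input. Its log2 values were 9.97, 11.59 and 11.73 on the FLAG arrays, 3.50, 4.53 and 5.32 on the MYC arrays, and 10.63, 10.68 and 11.05 on the inputs. The FLAG and input arrays overlapped (difference 0.31 ± 0.54, adjusted p = 0.591), while FLAG exceeded MYC by 6.65 ± 0.54 (adjusted p = 0.000165). Against a background of 2.73% of all probe sets, that log2 comparison of FLAG with MYC called 598 members higher and 0 lower (0.00887% of all probe sets). In position oma-2 stood at 10, 5 and 5 on the FLAG arrays, 871, 491 and 659 on the MYC arrays, and 572, 552 and 522 on the inputs. All of its FLAG positions were ahead of all others.

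Further genes had log2 values near input in the FLAG IP and at most 4.20 in the MYC IP. rskn-1, of the ribosomal S6 kinase family, had log2 values of 8.58, 9.12 and 9.29 on the FLAG arrays, 3.03, 2.98 and 4.20 on the MYC arrays, and 8.90, 8.51 and 9.26 on the inputs. eme-1, a subunit of a DNA junction-cutting nuclease, had 7.04, 8.09 and 8.42 in FLAG, 2.53, 2.83 and 3.19 in MYC, and 7.65, 6.62 and 7.97 in the input. polk-1, a translesion DNA polymerase, had 7.32, 8.42 and 8.43 in FLAG, 3.29, 3.43 and 3.93 in MYC, and 8.02, 6.39 and 8.62 in the input. For these 3 genes FLAG and input overlapped in log2 value, every FLAG array lay above every MYC array, and the FLAG rank was above every input rank. By this probe set polk-1 also ranked above the input in the MYC IP. Its positions were 69, 151 and 326 in FLAG, 1306, 1545 and 1890 in MYC, and 3375, 5297 and 2991 in the input. In a second probe set of polk-1 the MYC positions of 5150, 1805 and 2554 overlapped those of the input, at 4203, 4755 and 3904. The cadherin gene cdh-5 and Y54G2A.19 complete the 6 genes with the highest log2 change, each 0.22 above input. FLAG replicate 1 was the lowest FLAG array for all 6.

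The transcript of gld-1 itself had log2 values of 8.29, 9.63 and 9.46 on the FLAG arrays, 2.98, 3.27 and 4.69 on the MYC arrays, and 10.01, 9.04 and 10.42 on the inputs. It stood at positions 37, 41 and 158 on the FLAG arrays, 2642, 2036 and 1002 on the MYC arrays, and 867, 1511 and 817 on the inputs. Its percentile change was 4.37 ± 2.05 points (adjusted p = 0.194), with no overlap of FLAG and input arrays. The array does not separate RNA of the transgene from that of the mutant allele.

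**Figure D2:**
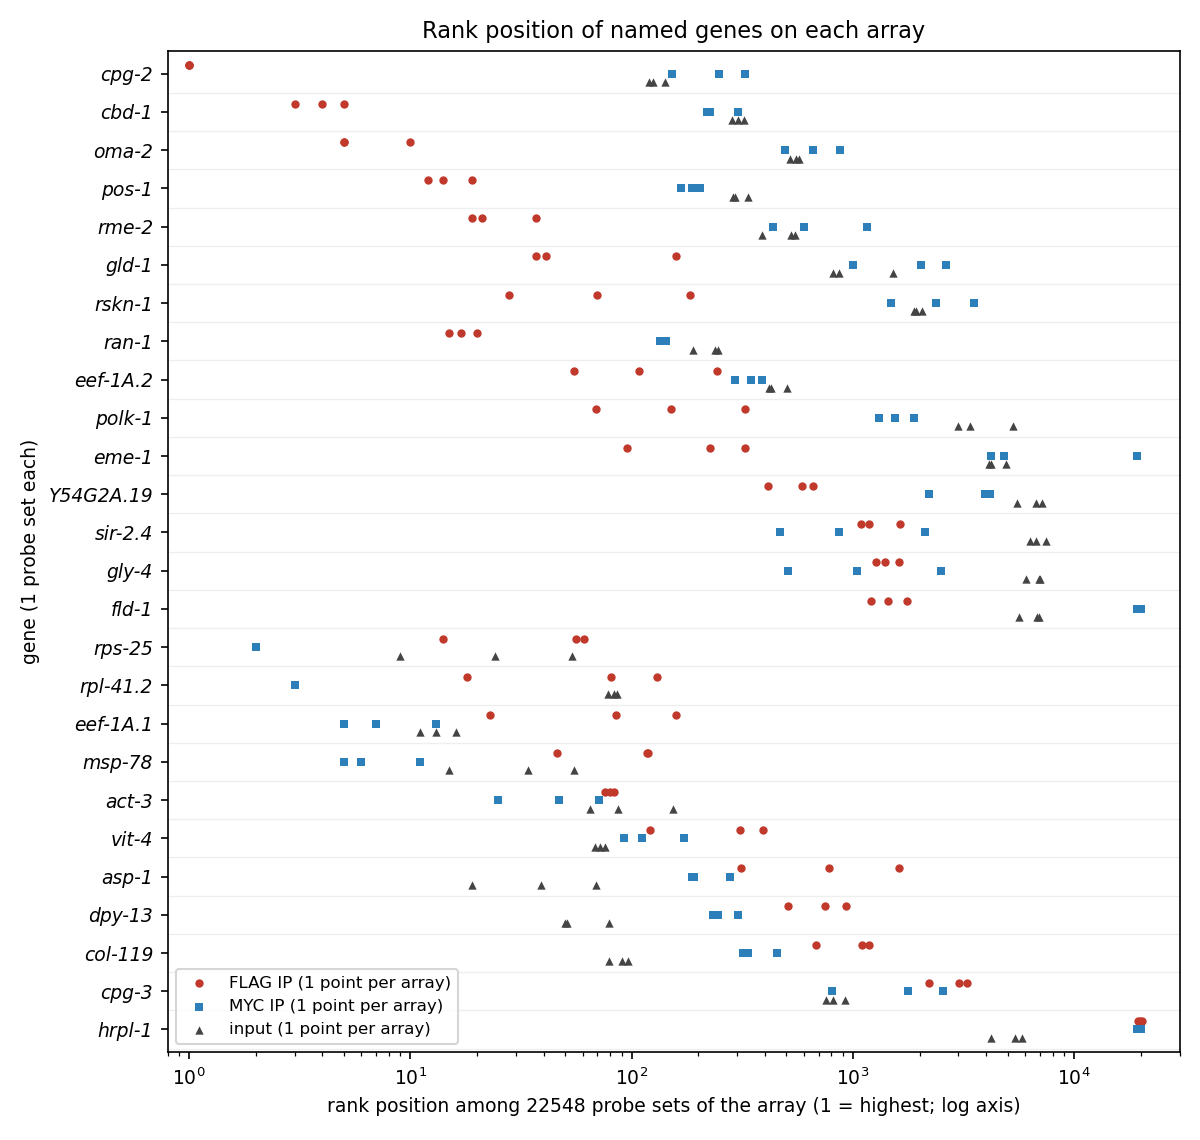
Rank position of 26 named genes on each of 3 FLAG, 3 MYC and 3 input arrays (horizontal log axis, 1 is the highest of 22548 probe sets), 1 point per array. Eggshell and oocyte genes such as cpg-2, cbd-1 and oma-2 stand further left in the FLAG IP than in the MYC IP and the input, ribosomal protein genes stand furthest left in the MYC IP, and the collagen genes dpy-13 and col-119 stand furthest left in the input.

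Tested on percentiles, 318 members (4.59%) ranked higher in the FLAG IP than in the input, against 9.62% of all probe sets, and 334 members (4.82%) ranked lower, against 4.84%. Neither share exceeds that of all probe sets. All 3 FLAG arrays ranked above all 3 inputs for 1442 members (20.8%, against 42.0% of all probe sets) and below them for 2999 (43.3%, against 22.1%). For 2786 members (40.2%) the mean percentile lay within 5 points of that in the input. On a normal-score scale, which spreads out the top of the array, 521 members were called higher and 846 lower, against 10.1% and 6.94% of all probe sets. The percentile counts moved with single arrays: the 318 fell to 199, 177, 194 and 171 without FLAG replicate 1, FLAG replicate 2, input 1 and input 3. The 334 became 182, 135, 571, 123, 151 and 112 without FLAG replicates 1, 2 and 3 and inputs 1, 2 and 3.

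The 318 members that gained rank came from the lower part of the abundant range, where percentiles leave room for a gain. The smallest called gain was 5.42 points. Their median percentile was 93.44 in the FLAG IP, 89.65 in the MYC IP and 78.68 in the input, and their median gain was 12.43 points. In the MYC IP 271 of the 318 also ranked above their input mean, and in the N2 IP 273 did. Over all members these counts were 2027 and 2044 of 6930. The same inputs chose the 318 and serve here, so nothing is read from these counts. In the second set 174 of the 318 (54.7%) had all 3 tagged arrays above all 3 N2 arrays, against 23.5% of all members and 8.89% of all probe sets. For 75 of the 318 (23.6%) all 3 tagged arrays ranked below all 3 of N2. That share was 23.0% of all members and 33.7% of all probe sets. Of the 290 genes, 14 (4.83%) are X-linked. Set directly against the MYC IP, 93 members ranked higher in the FLAG IP and 2 lower, where 0.594% and 0.111% of all probe sets were called. All 3 FLAG arrays ranked above all 3 MYC arrays for 1151 members (16.6%, against 6.22% of all probe sets) and below them for 1004 (14.5%, against 7.03%). Without FLAG replicate 2, FLAG replicate 3 or MYC replicate 3 the 93 became 36, 50 and 310, and the 2 became 0 to 12 over all arrays left out in turn. The 2 lower members were C14B9.3 and R102.4, and C14B9.3 was at the lowest value on all FLAG arrays and at 2.56, 2.54 and 2.61 on the MYC arrays.

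The largest called gains were in Y54G2A.19 (26.17 ± 2.77 points, adjusted p = 0.000113), the sirtuin gene sir-2.4 (24.48 ± 2.22, adjusted p = 3.35e-05), ash-2, a subunit of a histone H3 methyltransferase complex (24.43 ± 2.00, adjusted p = 1.42e-05), and gly-4, a glycosyltransferase (23.22 ± 2.34, adjusted p = 7.73e-05). hpo-42, Y43H11AL.1, fld-1 and dpf-7 gained 23.18, 22.85, 22.11 and 21.76 points. Their behaviour in the MYC IP was not alike. Y54G2A.19 stood at positions 659, 412 and 590 on the FLAG arrays, 2203, 3933 and 4173 on the MYC arrays, and 7119, 5494 and 6751 on the inputs. sir-2.4 stood at 1093, 1187 and 1624 in FLAG, 468, 865 and 2107 in MYC, and 6742, 7424 and 6294 in the input. gly-4 stood at 1399, 1274 and 1610 in FLAG, 511, 1040 and 2506 in MYC, and 6917, 6066 and 7005 in the input. For sir-2.4 and gly-4 the FLAG and MYC positions overlapped, and both genes ranked above every input on all arrays of either IP. fld-1, which acts on membrane lipid composition, was at the lowest value on all 3 MYC arrays. Its positions of 1445, 1213 and 1760 on the FLAG arrays compare with 6769, 5639 and 6963 on the inputs, and its log2 value in FLAG exceeded that in MYC by 2.36 ± 0.36 (adjusted p = 0.0044).

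The 334 members that lost rank had a median percentile of 67.74 in the FLAG IP, 72.52 in the MYC IP and 85.42 in the input, and a median change of -15.57 points. Of them, 81 lay at the lowest value on all 3 FLAG arrays and 89 did so on all 3 MYC arrays. Of their genes with a position 14.56% are X-linked. The largest falls all ended at or within rounding of that lowest value. hrpl-1, an RNA-binding protein of the hnRNP L kind, had log2 values of 2.52, 2.48 and 2.46 on the FLAG arrays, 2.53, 2.52 and 2.49 on the MYC arrays, and 6.98, 7.05 and 7.13 on the inputs (change in percentile -65.10 ± 2.18, adjusted p = 1.49e-08). dcr-1, the worm Dicer, had 2.52, 2.48 and 2.46 in FLAG, 2.53, 2.52 and 2.49 in MYC, and 7.72, 5.98 and 7.79 in the input (-61.06 ± 4.63, adjusted p = 7.48e-06). tpan-1, sut-2, F58E6.13, clec-51, C14B9.3 and ZK6.8 fell too, with changes of -65.75, -62.46, -59.81, -59.55, -59.27 and -58.66 points. Values at the lowest point have no order, so the size of such a fall measures the input position. A second probe set of hrpl-1 did not follow: it averaged 3.41 in FLAG, 3.44 in MYC and 6.23 in the input, with a percentile change of 12.90 (adjusted p = 0.052).

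The 100 probe sets highest in the input had a median percentile of 98.99 in the FLAG IP, 99.70 in the MYC IP and 99.78 in the input. rps-25, a protein of the small ribosomal subunit, had log2 values of 7.50, 9.37 and 11.04 on the FLAG arrays, 8.10, 9.33 and 10.75 on the MYC arrays, and 13.27, 13.24 and 13.70 on the inputs. It stood at positions 61, 56 and 14 in FLAG, 2, 2 and 2 in MYC, and 24, 54 and 9 in the input. rpl-41.2, of the large subunit, stood at 130, 81 and 18 in FLAG, 3, 3 and 3 in MYC, and 86, 78 and 83 in the input. rps-24, rpl-39 and eef-1A.1, the main translation elongation factor, likewise stood within the first 160 positions on every FLAG array. eef-1A.1 stood at 158, 85 and 23 in FLAG, 13, 7 and 5 in MYC, and 16, 13 and 11 in the input. By this probe set every FLAG array ranked it below every input, while MYC and input overlapped. Another probe set of eef-1A.1 differed, at 63, 45 and 15 in FLAG, 1, 1 and 1 in MYC, and 63, 59 and 53 in the input. There FLAG and input overlapped, and MYC ranked above both. None of these 5 genes differed between FLAG and MYC in log2 value (differences of -0.40 to 0.11, SE 0.92 for rpl-41.2, adjusted p = 1 for each). The 2 probe sets of eef-1A.2, a near-identical copy of the same factor, disagreed. The one that shares sequence averaged 8.44 ± 0.74 in FLAG, 5.32 ± 1.00 in MYC and 11.10 ± 0.28 in the input (SD, n = 3 each), and FLAG exceeded MYC by 3.12 ± 0.53 (adjusted p = 0.00819). The other averaged 4.66 in FLAG, 3.66 in MYC and 10.47 in the input, with FLAG and MYC not separated by the test (1.00 ± 0.49, adjusted p = 0.72).

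Among the 100 members highest in the input, the lowest in the FLAG IP were 4 genes of the cuticle and 1 of the gut. col-119, a cuticle collagen, had log2 values of 4.06, 5.50 and 7.20 on the FLAG arrays, 3.98, 5.19 and 6.71 on the MYC arrays, and 12.81, 13.10 and 13.09 on the inputs. It stood at 1099, 1183 and 678 in FLAG, 452, 336 and 320 in MYC, and 96, 79 and 90 in the input. The aspartyl protease gene asp-1 stood at 1618, 779 and 313 in FLAG, 277, 192 and 187 in MYC, and 69, 19 and 39 in the input. The collagen genes dpy-13, col-125 and sqt-3 completed the group. All 5 ranked below the input on every FLAG and MYC array, and none passed the percentile test (changes of -3.98 to -2.60 points).

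By gene list, the germline transcripts that GLD-1 is known for stood apart in level. The lists come from general knowledge of the worm and were drawn up with results of these data known, and some of the earlier targets also stand in the oocyte lists. Over the 5343 genes of the members, taken by 1 probe set each, 233 were called higher in percentile and 265 lower. The median percentile change was -3.33 and the median log2 change -4.32. On normal scores 399 of the 5343 were higher and 664 lower, and 460 were called higher in FLAG than in MYC in log2 value. Every FLAG array ranked above every input for 1078 of the 5343 and below for 2360. Of 12 earlier GLD-1 targets 3 were called higher (gna-2, glp-1 and mes-3) and 0 lower, the median changes were 5.67 points and -1.41 log2 units, and on normal scores 12 were higher. In all 12 every FLAG array ranked above every input, as in 1078 of the 5343 genes and 42.0% of all probe sets. gna-2, an enzyme supplying the eggshell's chitin, had log2 values of 7.51, 9.42 and 9.18 on the FLAG arrays, 2.98, 3.18 and 3.90 on the MYC arrays, and 9.12, 8.95 and 9.37 on the inputs. rme-2 stood at positions 21, 19 and 37 in FLAG, 1162, 435 and 602 in MYC, and 546, 389 and 526 in the input. The lowest of the list was mes-3, a chromatin protein of the germ line, with a FLAG mean of 4.23 ± 0.52, a MYC mean of 3.29 ± 0.13 and an input mean of 7.36 ± 1.08 (SD, n = 3 each). Its FLAG and MYC levels did not separate in the test (0.94 ± 0.43, adjusted p = 0.607), unlike those of the other 11 targets, which were all called higher in FLAG than in MYC.

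The 27 genes of RNA regulation in oocytes and embryos had log2 changes of -5.29 to 0.31, against -8.15 to 0.44 over all genes. None was called in percentile, 13 were higher on normal scores, the median changes were 1.59 points and -2.46 log2 units, and 16 were called higher in FLAG than in MYC in log2 value. pos-1, a zinc-finger gene that patterns the early embryo, stood at positions 12, 14 and 19 in FLAG, 187, 167 and 204 in MYC, and 286, 337 and 293 in the input. puf-5, puf-7 and puf-11, of the Pumilio family, averaged 9.36, 9.85 and 9.19 in FLAG, 4.65, 5.15 and 4.42 in MYC, and 11.17, 10.92 and 10.86 in the input. Among the lowest in FLAG level, the Pumilio gene fbf-1 averaged 3.04 in FLAG, 2.69 in MYC and 7.28 in the input. fbf-2, the poly(A) polymerase gene gld-2 and lin-41, a regulator of oocyte growth, averaged 3.22, 2.88 and 2.71 in FLAG, 2.98, 2.65 and 2.73 in MYC, and 7.59, 7.24 and 6.06 in the input. Their log2 changes from input were -4.24, -4.38, -4.36 and -3.35, against the median of -4.29 over all members.

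Of the 13 genes of eggshell and yolk uptake, gna-2 was called higher and cpg-3 lower in percentile, 9 were higher and 3 lower on normal scores, and 10 were called higher in FLAG than in MYC. The median log2 change was -1.53. cpg-1, egg-1 and the chitin synthase gene chs-1 averaged 11.30, 9.86 and 8.54 in FLAG, 6.04, 4.28 and 3.83 in MYC, and 12.34, 10.85 and 10.07 in the input. cpg-3, another eggshell proteoglycan, did the opposite, with log2 values of 3.10, 3.59 and 4.96 on the FLAG arrays, 3.15, 3.15 and 5.04 on the MYC arrays, and 9.93, 10.14 and 10.42 on the inputs. Its percentile fell by 8.90 points (SE 2.22, adjusted p = 0.019). perm-2 and perm-4, of the eggshell's permeability barrier, averaged 4.69 and 4.98 in FLAG, 4.44 and 4.80 in MYC, and 10.07 and 10.73 in the input. chs-1 and perm-2, both with an input mean of 10.07, thus had FLAG means of 8.54 and 4.69.

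The other germline lists held fewer genes near input. Of 19 genes of germ granules and oocyte RNA particles, meg-1 and meg-3 were called higher in percentile and 0 lower, with a median log2 change of -4.53. meg-1 averaged 7.93 ± 0.79 in FLAG, 4.05 ± 0.58 in MYC and 9.38 ± 0.46 in the input (SD, n = 3 each). The helicase gene glh-1 averaged 5.48 in FLAG, 5.04 in MYC and 11.36 in the input. Of 35 cell cycle genes none was called in percentile, 6 were higher on normal scores and 9 exceeded MYC. Among cyclins of type B, cyb-2.1 and cyb-3 averaged 9.50 and 9.42 in FLAG, 4.52 and 5.65 in MYC, and 10.95 and 11.67 in the input. bir-1, a chromosomal passenger protein, averaged 9.26 in FLAG, 3.81 in MYC and 9.29 in the input. Of 27 genes of meiotic chromosomes only msh-5 was called, and it ranked higher. Of 45 sperm genes sss-1 and sss-2 were called higher and spe-44 and ssq-3 lower in percentile, and 2 were higher and 19 lower on normal scores. Every FLAG array ranked below every input for 33 of the sperm genes and above for 3. Over the 5343 genes of all members these counts were 2360 and 1078, and over all probe sets 22.1% and 42.0%.

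Lists of general and somatic function had few called gains. None of 76 ribosomal protein genes was called in percentile and 47 were lower on normal scores, where the background of lower calls was 6.94%. Their median log2 value was 5.70, 7.93 and 9.82 on the FLAG arrays, 6.39, 7.70 and 9.33 on the MYC arrays, and 13.01, 13.16 and 13.24 on the inputs. Of 79 cuticle collagen genes 18 were called lower in percentile and 1, col-173, higher, and 51 were lower on normal scores. Their median percentile was 86.51 in FLAG, 91.74 in MYC and 96.42 in the input. Of 38 nuclear genes of the respiratory chain and ATP synthase 7 were called lower and 0 higher, with a median log2 change of -6.02. Of 32 genes of the intestine 5 were called lower, of 31 muscle genes 3, of 33 proteasome genes 3 and of 32 chaperone genes 2, with 0 higher in each. Against 265 of 5343 genes over all members (4.84% of all probe sets), such counts of 2 or 3 are near the background. Of the 5 yolk protein genes, which are made in the gut, none was called in percentile and all 5 were lower on normal scores. The remaining lists (translation factors, nervous system, glycolysis, histones, splicing and highly conserved genes) had 0 to 2 calls in either direction each. The gains among them were aldo-1 and hxk-2 of glycolysis, the histone gene hil-7 and the splicing gene swp-1.

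**Figure D3:**
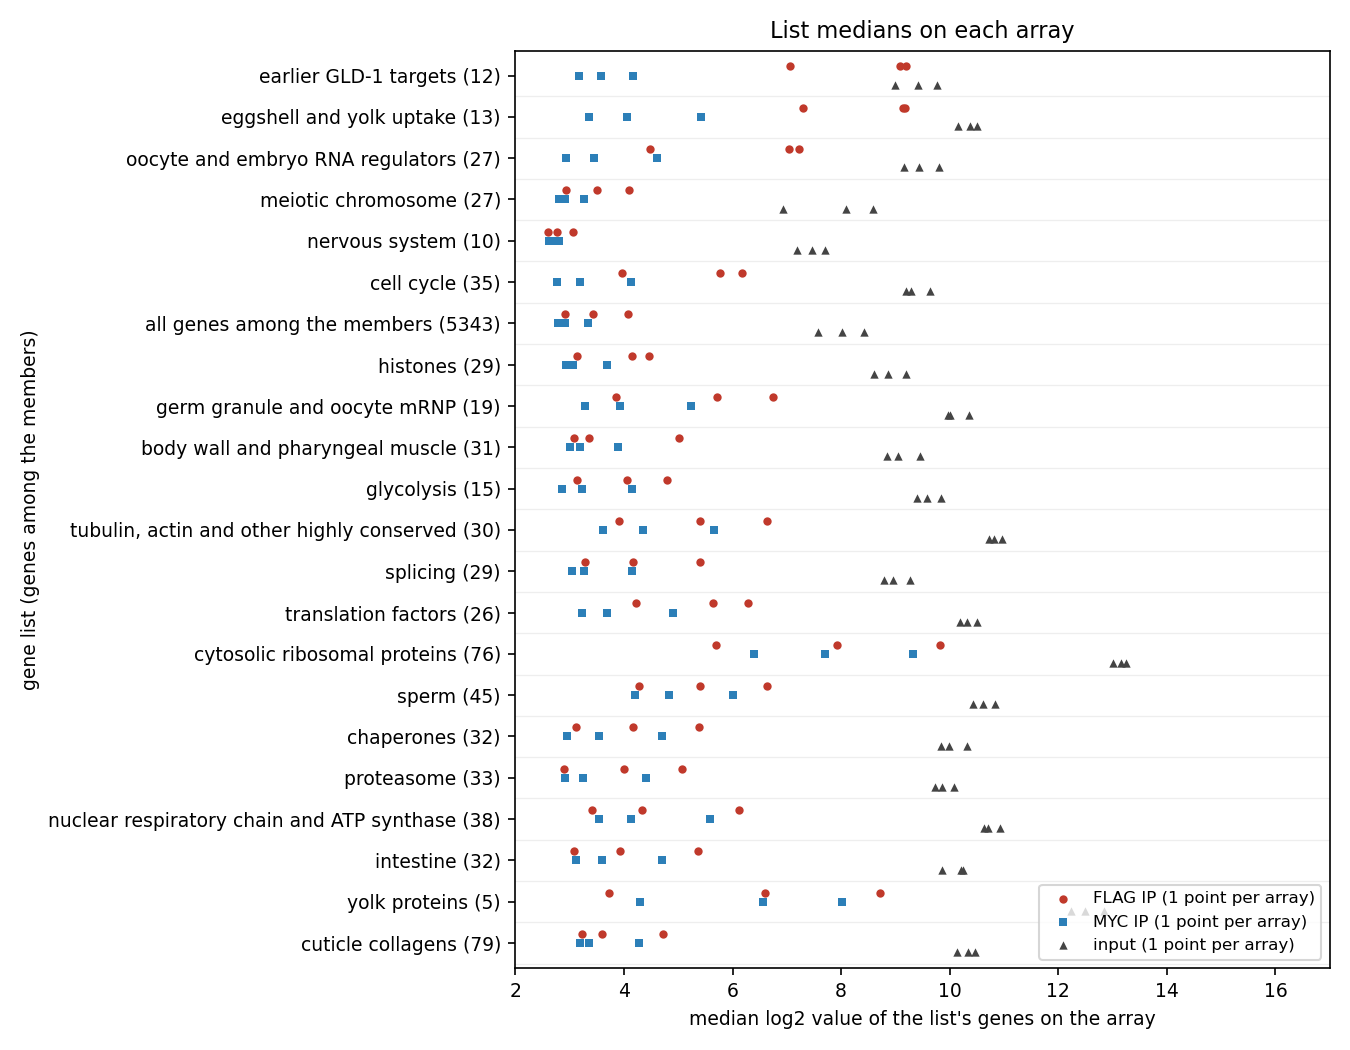
Median log2 value of each gene list on the horizontal axis for each of 3 FLAG, 3 MYC and 3 input arrays (1 point per array), with the number of listed genes among the members in parentheses and lists ordered by their median change from input to FLAG IP. For the earlier GLD-1 targets the FLAG medians of 7.06, 9.20 and 9.09 lie apart from the MYC medians of 3.17, 3.57 and 4.17, whereas for ribosomal proteins, yolk proteins and collagens the FLAG and MYC medians overlap.

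Calls in percentile varied with the level in the input. The smallest called gain was 5.42 points, and probe sets near the top of an array cannot gain that much. The lack of higher calls at high input is therefore largely set by the percentile scale. Of 1722 members with an input mean of 6 to 7, 125 were called higher and 99 lower, and of 1862 at 7 to 8, 131 and 60. At 9 to 10 the counts were 5 and 68 of 882, at 10 to 11 they were 0 and 33 of 445, and at 13 or more 0 and 0 of 88. The median FLAG level climbed with input level, at 2.84 for 6 to 7, 4.20 for 9 to 10 and 7.88 for 13 or more, against 2.70, 3.48 and 7.88 in the MYC IP. At middle levels the FLAG IP had both a higher median and a wider spread. At an input of 10 to 11 the medians were 4.98 in the FLAG IP and 4.08 in the MYC IP. At an input of 10 to 11 the 10th and 90th percentiles of the members were 3.90 and 7.89 in the FLAG IP and 3.53 and 4.80 in the MYC IP. At 13 or more they were 6.58 and 8.62 in the FLAG IP and 6.41 and 8.63 in the MYC IP. Across members, Pearson's r of single arrays with inputs was 0.528 to 0.812 for FLAG and 0.653 to 0.885 for MYC, and 0.943 to 0.991 between inputs. On ranks FLAG and MYC were more alike. Spearman's correlation with inputs was 0.481 to 0.795 for FLAG and 0.458 to 0.828 for MYC, and 0.911 to 0.986 between inputs. These are descriptions across probe sets, which share an array and are not replicates.

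**Figure D4:**
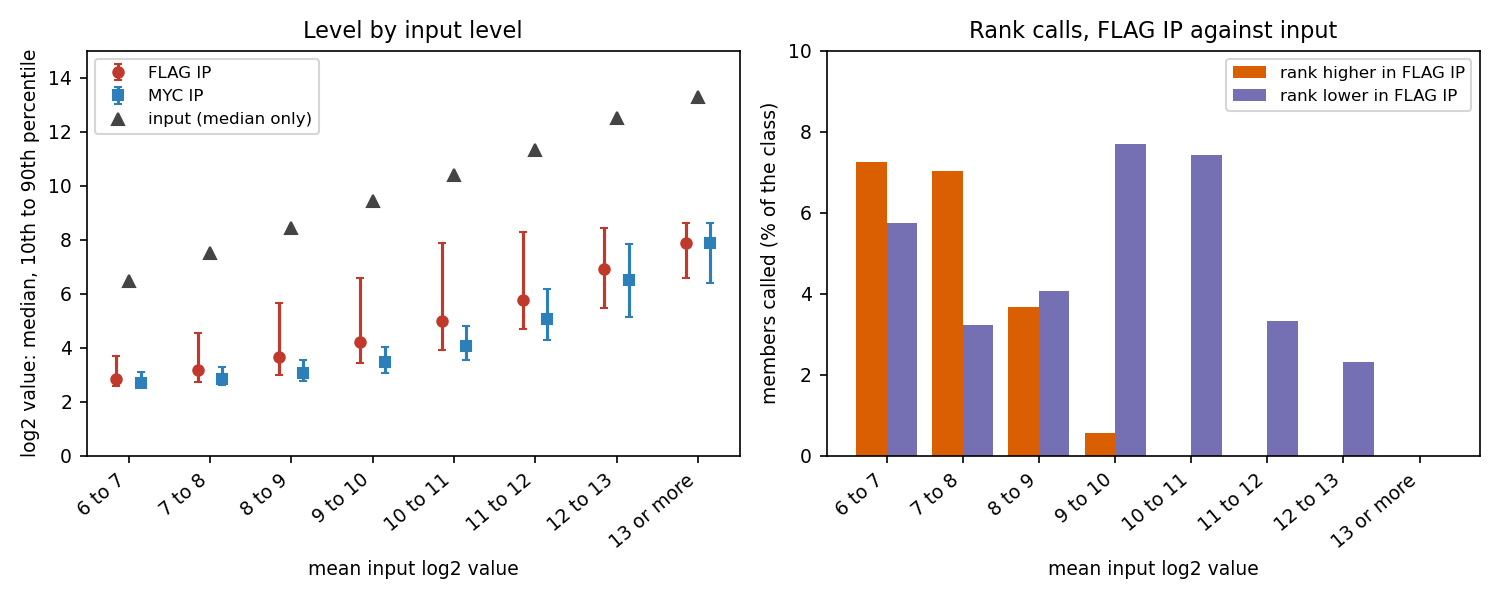
Left: median log2 value (points) and 10th to 90th percentile (bars) of the members in the FLAG IP and the MYC IP, with the input median, in 8 classes of mean input log2 value on the horizontal axis. Right: percentage of each class called higher or lower in percentile in the FLAG IP. The FLAG bars reach higher than the MYC bars in the middle classes (7.89 against 4.80 at 10 to 11). Calls of higher rank end at an input of 10, where percentiles leave little room for a gain.

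The choice of 6 as the minimum fell in a continuous range: the 5 members just inside it had input means of 6.0009 to 6.0057, and the 5 probe sets just outside 5.9981 to 5.9990.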

How the data were processed

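Affymetrix C. elegans arrays measured RNA of whole young adult worms, 15 arrays in 5 groups of 3. The authors deposited a log2 value for each probe set of every array, made with GCRMA (a background adjustment and summary) per the submitters' processing notes; its version is not given in the sources used here. Sample titles gave the groups and replicate numbers, and 0 value columns lacked a sample. Leaving out 77 array controls, 22548 probe sets were tested, of which 20766 have 1 symbol in the platform annotation, 887 several and 895 none.

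Percentiles are midranks within an array. The lmFit and eBayes functions of limma 3.58.1 (R 4.3.3) fitted the group means of all 15 arrays, with 10 residual degrees of freedom and prior degrees of freedom of 1.43 for percentiles and 0.904 for log2 values. Calls are at a two-sided Benjamini-Hochberg adjusted p under 0.05 over 22548 probe sets. The smallest p of an exact permutation test with 3 arrays a group is 0.1. Errors of differences are standard errors of the fit. They pool the spread within all 5 groups, so an error can exceed the spread of the arrays compared. The second probe set of polk-1 had percentile SDs of 0.905 in FLAG, 1.91 in the input and 39.7 in N2. Its SE for FLAG minus input was 13.9 points. Depth is not defined for arrays; the number of arrays limits the precision. The fits were tested on simulated data in which every group had the noise of the input arrays. Many members spread more between FLAG or MYC arrays than between inputs, so that test does not show how the fits behave on the IPs.

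Named genes, 1 probe set each with the highest input mean, were gld-1, the 8 largest called gains and falls in percentile without overlap, the 6 highest log2 changes, the 5 highest and 5 lowest in the FLAG IP among the 100 members highest in input, and the 2 highest and 2 lowest of each list. Other genes are members of a list, called members of it, or were chosen after their values were seen. The members and lists were chosen with earlier results of these data known. The comparison with set 2, the log2 comparison of FLAG with MYC, the 302 members near input the counts of them with an array left out, and the top 100 were added after the data were seen. Positions and chromosomes of genes came from the RefSeq gene table of WBcel235. No genome coordinates or sequences are given, as no build is named with the files.

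Alternatives were each array left out in turn, a block for replicate number, a fit of just the 6 arrays compared, a mean-variance trend with robust eBayes, an adjusted p under 0.01, other minimum levels, no probe sets of shared sequence, 1 probe set per gene, ranks among members, normal scores, set 2 in place of set 1, quantile normalization, 2 centrings and cyclic loess.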

Additional observations from a re-analysis of the deposited data

How the results depend on the processing

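Each setting kept the direction of those of the 25 named genes called in percentile that it still held (12 at an input minimum of 7, 3 at 8, 5 with the minimum over 6 arrays, 14 without shared sequence, 23 with 1 probe set per gene, and 24 and 22 without inputs 1 and 3), although 11 of them lost the call under at least 1 setting (his-61 and meg-1 under 8 each, cpg-3 and mes-3 under 7 each). In the order percentile higher, percentile lower (318 and 334 members as reported), the counts ranged over 171 to 312 and 112 to 571 when 1 array was left out. They were 695 and 612 from the 6 arrays alone, 433 and 604 with a trend and robust eBayes, 143 and 87 at an adjusted p under 0.01, 469 and 505 at an input minimum of 5, 193 and 235 at 7, and 62 and 175 at 8. They were 158 and 118 with the minimum set over the 6 arrays, 102 and 121 without probe sets of shared sequence, 975 and 1122 with ranks among the members, 521 and 846 on normal scores, and 394 and 868 with set 2 in place of set 1. Log2 counts (0 higher and 6801 lower as reported) were 0 to 6 higher and 6307 to 7341 lower with 1 array left out, members being chosen anew where an input was left out. Log2 calls were 12 higher with set 2, 706 higher and 1410 lower after quantile normalization, 2437 and 1563 centred on the members, 1218 and 29 centred on ribosomal protein genes, and 1680 and 2727 after cyclic loess. Of 96 named probe sets called lower in log2, 71 kept that direction after quantile normalization. The number was 52 centred on the members, 26 centred on ribosomal protein genes and 75 after cyclic loess. Lower log2 calls were 3268 at an input minimum of 8, 2807 with the minimum over the 6 arrays and 3525 without shared sequence. FLAG against MYC (93 higher and 2 lower in percentile) gave 36 to 310 and 0 to 12 with 1 array left out. It gave 11 and 1 from 6 arrays, 184 and 71 with a trend, 30 and 0 at 0.01, 59 and 1 at a minimum of 7, 28 and 0 at 8, 1 and 0 with the minimum over 6 arrays, 20 and 1 without shared sequence, 657 and 407 with ranks among members, and 513 and 275 on normal scores. The count of members within 2 log2 units of input (302) was 215 to 512 with 1 array left out. The cause of these moves was not tested beyond what a setting does by construction (fewer probe sets or arrays, a stricter threshold). With the replicate block the counts were 269 and 267 for FLAG against input in percentile, 0 and 6787 in log2, and 60 and 1 for FLAG against MYC. Deviations of same-numbered FLAG and input arrays correlated at 0.039, 0.01 and -0.033, and those of FLAG and MYC at 0.229, -0.032 and 0.356, so the numbers were not taken to pair arrays. Members near the lowest value of the IP arrays limit what ranks can show there.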

Other observations

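Transcripts of the mitochondrial genome were among the brightest in the FLAG IP, as was seen on reading the 100 highest probe sets, so they were chosen after their values were seen. Of 8 such probe sets 7 were members, of which none was called in percentile and 5 were higher on normal scores. Several also ranked above input in the control IPs: COX3 stood at positions 8, 11 and 8 in FLAG, 49, 6 and 41 in MYC, 29, 20 and 35 in N2, and 181, 299 and 184 in the input. COX1 stood at 42, 87 and 99 in FLAG, 43, 34 and 97 in MYC, 101, 82 and 90 in N2, and 294, 420 and 358 in the input. FLAG and MYC percentiles differed by 0.10 for COX3 and -0.08 for COX1 (adjusted p = 0.981 and 0.984). COX3, a subunit of cytochrome c oxidase, had log2 values of 10.12, 11.18 and 11.35 on the FLAG arrays, 6.76, 8.63 and 9.66 on the MYC arrays, and 12.37, 11.73 and 12.61 on the inputs. ND4, of NADH dehydrogenase, had 9.91, 10.68 and 11.07 in FLAG, 5.87, 7.38 and 8.82 in MYC, and 12.17, 11.98 and 12.36 in the input. COX1 averaged 8.93 ± 0.93 in FLAG, 8.04 ± 1.08 in MYC and 11.46 ± 0.32 in the input (SD, n = 3 each). In log2 value FLAG exceeded MYC for ND4 (3.20 ± 0.68, adjusted p = 0.028) and not by the test for COX3 (2.54 ± 0.66, adjusted p = 0.0852) or COX1 (0.89 ± 0.57, adjusted p = 0.76). ND1 and CYTB averaged 6.70 and 6.87 in FLAG, 5.41 and 5.92 in MYC, and 11.45 and 10.82 in the input. Of the 7 mitochondrial members, COX3 and ND4 lay within 2 log2 units of input (changes of -1.35 and -1.62). COX2, COX1, ATP6, CYTB and ND1 did not (-2.05 to -4.75). The nuclear genes of the respiratory chain had 0 of 38 within 2 log2 units, near the share of 4.36% over all members.

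A few further genes stood near input in the FLAG IP, again chosen after their values were seen. hxk-1, a hexokinase, averaged 8.86 ± 0.88 in FLAG, 3.49 ± 0.79 in MYC and 10.21 ± 0.28 in the input (SD, n = 3 each). gln-5, a glutamine synthetase gene, averaged 9.81 in FLAG, 3.95 in MYC and 10.72 in the input. pup-2, a poly(U) polymerase gene, has 3 probe sets among the 302 near input, which averaged 7.31, 7.18 and 6.60 in FLAG, 3.65, 2.68 and 3.14 in MYC, and 7.23, 7.17 and 6.90 in the input. lin-28, an RNA-binding regulator of developmental timing, averaged 7.22 in FLAG, 2.66 in MYC and 7.21 in the input. For each of these genes the FLAG mean exceeded the MYC mean by over 3 log2 units.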
